A study of Mus musculus with 6 samples.

Results

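The collagen genes and the genes of the enzymes that hydroxylate and cross-link collagen were examined in BMDMs, macrophages grown from mouse bone marrow, after 8 hours of hypoxia with serum starvation (HSS), a culture model of ischemia. Protein-coding genes were chosen by symbol alone, as the numbered collagen alpha chains, the catalytic subunits of prolyl 4-hydroxylase (*P4ha1* to *P4ha3*), the lysyl hydroxylases (*Plod1* to *Plod3*) and the lysyl oxidases (*Lox* and *Loxl1* to *Loxl4*). Of 55 such genes in the tables, 44 had at least 10 estimated counts over the 6 libraries, and these 44 genes, 33 collagens and 11 enzymes, are described here among 18506 genes with that many counts. The other 11 were all collagens.

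WT cells came from LysM-Cre+/- Drp1+/+ mice and Drp1 KO cells from LysM-Cre+/- Drp1 fl/fl littermates, with 3 libraries labelled as biological replicates in each group. Both groups therefore carried Cre, driven by the lysozyme M promoter of myeloid cells, and both were grown to day 7 in L929 cell supernatant (10% per the labels, a higher share per the study's methods) and kept for 8 hours at 2.1% oxygen without serum. No library from cells outside HSS entered the comparison, so it asks how the genotypes differed under HSS and not what HSS did. Marrow of 2 mice per genotype was pooled per the study's methods, which do not say whether each library had its own pool. Mice of both sexes were 8 to 12 weeks old per the same methods. If the libraries were not separate pools, the p-values measure only the spread between these libraries.

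Collagen chains are made in the endoplasmic reticulum, where prolyl 4-hydroxylases stabilize the triple helix and lysyl hydroxylases prepare the sites of cross-links. Lysyl oxidases then start cross-linking outside the cell. The hydroxylases need oxygen, iron and 2-oxoglutarate, and several of their genes, like *Lox*, are known targets of hypoxia-inducible factors. Fibroblasts make most fibrillar collagen of tissues, while macrophages are better known for degrading and taking up matrix.

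Estimated reads per library ranged from 24269850 to 28650715 for WT and from 23389488 to 32231206 for Drp1 KO. In CPM (counts scaled to library size), 3 counts came to 0.0917 to 0.136. *Dnm1l*, the gene of DRP1, had 72.7, 69.9 and 75.1 CPM in WT and 58.7, 60.7 and 66.3 CPM in Drp1 KO, a log2 fold change of -0.23 (SE 0.0921) with an adjusted p of 0.248 by edgeR's quasi-likelihood test. These gene totals cover all exons and are no check of the deleted ones. Macrophage markers were abundant in every library, with *Lyz2* at 8173 to 9961 CPM.

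Several enzymes have alternative coding exons, and these are shown because the tables gave a separate estimate for each transcript. In *P4ha1*, the catalytic subunit of the main prolyl 4-hydroxylase, exon 9 is either of 2 versions of 71 bases that lie on chromosome 10 of GRCm39, both on the plus strand. The upstream version is at chr10:59190162-59190232 and the downstream version at chr10:59191172-59191242. In the following lines capitals mark the 29 positions at which the versions differ, and the other 42 bases are identical (59.2%).
P4ha1 exon 9, upstream: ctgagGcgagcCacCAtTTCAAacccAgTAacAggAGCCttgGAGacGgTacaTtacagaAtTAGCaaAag
P4ha1 exon 9, downstream: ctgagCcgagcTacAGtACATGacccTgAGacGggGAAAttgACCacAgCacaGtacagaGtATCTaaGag

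In *P4ha2*, the second catalytic subunit, exon 13 also comes in 2 versions on the plus strand of chromosome 11. The upstream version has 60 bases at chr11:54017064-54017123 and the downstream version 66 bases at chr11:54017172-54017237. In *Plod2*, the lysyl hydroxylase best known for the cross-links of telopeptides, a longer transcript includes a coding exon, its exon 14, of 63 bases at chr9:92484038-92484100, plus strand, that the main transcript lacks.
P4ha2 exon 13, upstream: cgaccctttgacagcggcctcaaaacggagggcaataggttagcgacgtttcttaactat
P4ha2 exon 13, downstream: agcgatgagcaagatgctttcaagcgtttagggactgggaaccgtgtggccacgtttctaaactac
Plod2 exon 14: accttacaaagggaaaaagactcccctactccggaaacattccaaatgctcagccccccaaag

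Levels between genes were compared in TPM, which is scaled to transcript length and library size. The enzymes were far more abundant than the collagens. Mean TPM over the 6 libraries was 196 for *Lox*, 134 for *P4ha1*, 76.5 for *Plod1*, 41.9 for *P4ha2* and 24.1 for *Plod3*. *Loxl3* (3.64 TPM) and *Plod2* (3.20 TPM) followed at a distance, and *Loxl2*, *P4ha3*, *Loxl4* and *Loxl1* were under 1 TPM.

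Of the 33 collagens, *Col18a1* stood alone at 22.98 TPM. Its product is a basement membrane collagen whose C-terminal fragment is endostatin. The next, *Col26a1*, had 2.49 TPM, and each of the other collagens was under 1 TPM. Per library, collagens took 6.91% to 7.12% of the TPM of the 44 genes in WT and 5.32% to 6.32% in Drp1 KO, so the groups did not overlap. *Col18a1* alone took 61.1% to 75.2% of the collagen TPM. The summed enzyme TPM was 475 to 497 in WT and 444 to 511 in Drp1 KO, which overlapped.

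**Figure D1:**
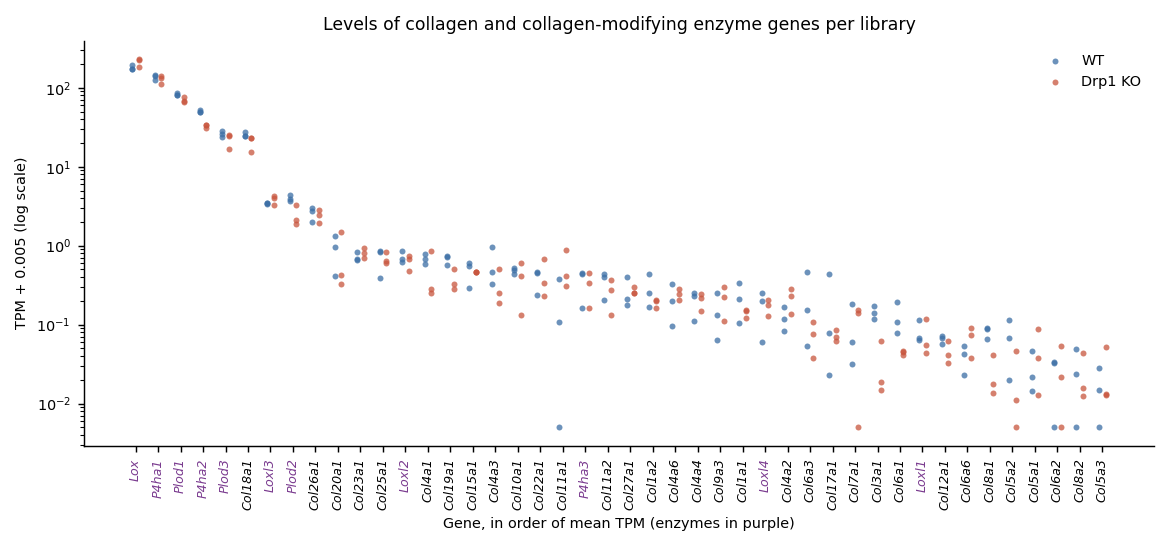
TPM of each of the 44 genes in each library on a log axis, with 0.005 added to each value so that zeros can be drawn, in order of the mean TPM (points: libraries, WT blue and Drp1 KO red; enzymes in purple letters). The 5 most abundant enzymes and Col18a1 sit above 10 TPM in every library, and most collagens sit under 1 TPM.

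At an adjusted p under 0.05, 0 of the 44 genes differed between the genotypes by edgeR's quasi-likelihood test, against 3.36% of all genes tested. At an unadjusted p under 0.05 there were 6 of 44, where 16.4% of all genes were. DESeq2 called 2, *Col18a1* and *P4ha2*, both lower in Drp1 KO, and 8.80% of the genes to which it gave an adjusted p (3.75% lower). It gave none to some of the 44, which had low counts, so 2 of 44 and that share have different bases. The study's criteria, a fold change in which the higher group is over 25% above the lower together with an unadjusted p under 0.05, called 5 of 44 (11.4%) when applied to the edgeR test, beside 12.7% of all genes. Per the study's methods the criteria were applied to DESeq2 results. With DESeq2 they called 4 of 44, all lower (*Col8a1* was the one lost, with an unadjusted p of 0.0644), beside 11.7% of the genes to which it gave a p (5.38% lower). By edgeR all 5 were lower in Drp1 KO, where 5.48% of all genes were called lower and 7.19% higher. They were *Col18a1*, *P4ha2*, *Plod2*, *Col19a1* and *Col8a1*.

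The replicate numbers were taken to pair the libraries, and with the number as a block 5 of 44 passed an adjusted p under 0.05, where 12.0% of all genes did (5.22% lower and 6.73% higher). *Col18a1*, *P4ha2*, *Plod2* and *Col19a1* fell in that fit and *Lox* rose. Over the 44 genes the median log2 fold change was -0.08, with 27 lower and 17 higher, and over all genes it was 0.0046 with 49.4% lower. The members' median was -0.29 without WT library 1 and -0.02 without WT library 3. In 10 of 44 genes the groups did not overlap in CPM (8 lower and 2 higher in Drp1 KO), where 21.9% of all genes did not (10.3% lower and 11.7% higher).

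**Figure D2:**
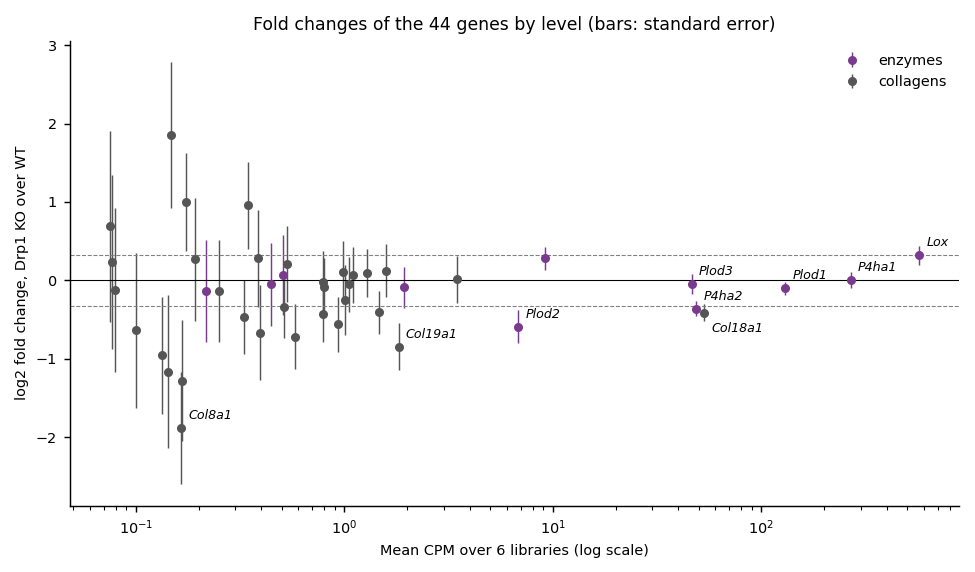
Log2 fold change of Drp1 KO over WT (points, with the standard error as bars) against the mean CPM over 6 libraries on a log axis, enzymes in purple and collagens in grey; dashed lines mark the study's fold change. The standard error runs from 0.0831 to 0.132 in the 6 genes above 10 CPM and from 0.349 to 1.22 in the 24 collagens under 1 CPM.

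Among prolyl 4-hydroxylases, *P4ha2* was lower in Drp1 KO in each library. It had 57.0, 56.1 and 51.3 CPM in WT and 44.8, 43.8 and 39.4 CPM in Drp1 KO, or 54.8 ± 3.04 and 42.6 ± 2.88 (mean ± SD, n = 3). The groups did not overlap. The log2 fold change was -0.36 (SE 0.0978, 95% interval -0.58 to -0.15), or 1.29-fold lower, with an adjusted p of 0.0800 by edgeR, 0.0103 with the replicate block and 0.0103 to 0.270 over the alternatives. In TPM the gap was wider, at 50.6 ± 2.10 in WT and 33.2 ± 1.55 in Drp1 KO, and with length-scaled counts *P4ha2* passed (log2 fold change -0.53). Only 63.4% of its estimated counts lay on protein-coding transcripts. A short transcript of 1052 bases, annotated for nonsense-mediated decay, held 20.3%, 13.2% and 17.7% in WT and 11.1%, 11.2% and 13.6% in Drp1 KO, which overlapped. Its part in the wider gap was not tested. The TPM and length-scaled values of *P4ha2* are thus not values of the coding mRNA alone.

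*P4ha1* was level between the groups within its error. It had 256, 277 and 270 CPM in WT and 240, 279 and 286 CPM in Drp1 KO, which overlapped. Its log2 fold change was 0.004 (SE 0.0990, 95% interval -0.22 to 0.22), and its sign changed with the scaling. *P4ha3*, the third catalytic subunit, was near the limit of detection, with 37 counts in WT and 40 in Drp1 KO over 3 libraries each. *P4hb*, the protein disulfide isomerase that forms the beta subunit of the enzyme, had 830, 922 and 838 CPM in WT and 720, 702 and 699 CPM in Drp1 KO (log2 fold change -0.29, adjusted p 0.138 by edgeR, 0.0260 with the replicate block).

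The 3 lysyl hydroxylases each had a fold change below 0, and *Plod2* met the study's criteria. *Plod2* had 8.50, 8.43 and 7.73 CPM in WT and 3.995, 5.01 and 7.27 CPM in Drp1 KO. The groups did not overlap, although Drp1 KO library 3 came close to WT. Its log2 fold change was -0.59 (SE 0.210), or 1.505-fold lower, with an adjusted p of 0.184 by edgeR and 0.0492 with the replicate block. The unadjusted p of 0.0183 became 0.0695 without Drp1 KO library 2 and 0.0685 without both libraries numbered 1.

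*Plod1*, the most abundant lysyl hydroxylase, had 136, 131 and 136 CPM in WT and 123, 126 and 126 CPM in Drp1 KO. The groups did not overlap, but the log2 fold change of -0.10 (SE 0.0831) did not pass (adjusted p 0.627, edgeR). *Plod3*, which also carries glycosyltransferase activity, had 46.5, 45.1 and 49.8 CPM in WT and 48.1, 36.6 and 52.3 CPM in Drp1 KO. These overlapped, with a log2 fold change of -0.05 (SE 0.132) that turned to 0.10 without Drp1 KO library 2.

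*Lox*, the founding lysyl oxidase and the most abundant gene of the 44, was the only one to pass in the higher direction in the fit with the replicate block. It had 566, 492 and 464 CPM in WT libraries 1 to 3 and 715, 543 and 638 CPM in Drp1 KO libraries 1 to 3. The groups overlapped, since Drp1 KO library 2 lay under WT library 1, while Drp1 KO was above WT in each numbered pair. The log2 fold change was 0.32 (SE 0.124, 95% interval 0.04 to 0.59), just under the study's fold change, with an adjusted p of 0.232 by edgeR and 0.0265 with the replicate block. Over the alternatives the adjusted p ran to 0.601, and without 1 library the log2 fold change ran from 0.21 (without Drp1 KO library 1) to 0.42.

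*Loxl3*, a lysyl oxidase of the LOXL2 to LOXL4 subgroup, had 8.71, 8.40 and 7.67 CPM in WT and 8.72, 11.3 and 10.0 CPM in Drp1 KO. Drp1 KO library 1 lay just above the highest WT library, and the log2 fold change of 0.28 (SE 0.146) did not pass (adjusted p 0.387, edgeR). *Loxl2* had 158 counts in WT and 163 in Drp1 KO (log2 fold change -0.09, SE 0.261). *Loxl4* had 41 and 47 counts and *Loxl1* 18 and 17 counts, so that only large differences were detectable in them at this depth.

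**Figure D3:**
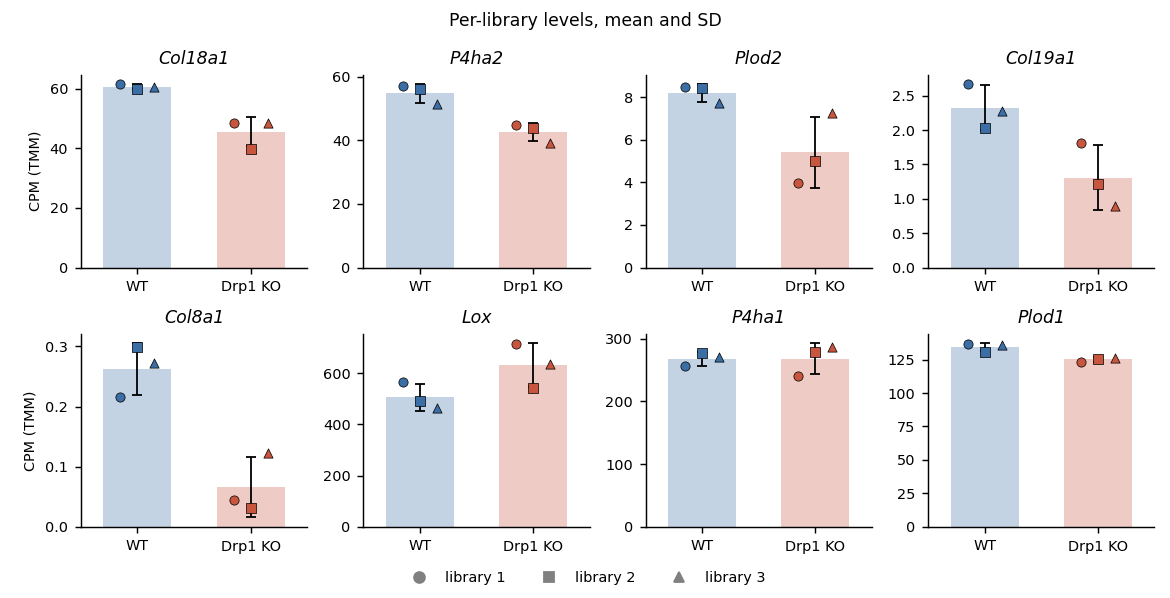
CPM after TMM scaling of 8 genes, with a bar for the mean of 3 libraries, an error bar for the SD and a symbol for each library number; each axis starts at 0. Col18a1, P4ha2, Plod2, Col19a1 and Col8a1 are lower in each Drp1 KO library than in any WT library, and the Lox libraries overlap.

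*Col18a1* was the collagen with the smallest error. It had 61.8, 59.97 and 60.5 CPM in WT and 48.6, 39.9 and 48.5 CPM in Drp1 KO, or 60.7 ± 0.913 and 45.7 ± 4.998 (mean ± SD, n = 3), and the groups did not overlap. The log2 fold change was -0.41 (SE 0.104, 95% interval -0.64 to -0.18), or 1.33-fold lower. The adjusted p was 0.0654 by edgeR, 0.0087 with the replicate block, 0.0155 by DESeq2 and 0.0498 without Drp1 KO library 1. With length-scaled counts the log2 fold change was smaller, at -0.22 with an adjusted p of 0.611. In TPM Drp1 KO had 23.4, 15.2 and 23.1 against 27.2, 24.2 and 24.8 in WT, so library 2 carried most of the gap on that scale.

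*Col19a1*, a collagen of the FACIT class, which associates with fibrils, was 1.80-fold lower in Drp1 KO. It had 62, 54 and 67 counts in WT and 40, 40 and 29 counts in Drp1 KO, or 2.67, 2.02 and 2.28 CPM against 1.82, 1.22 and 0.889 CPM. The groups did not overlap. The log2 fold change was -0.85 (SE 0.302) with an adjusted p of 0.185 by edgeR and 0.0375 with the replicate block. The unadjusted p of 0.0184 became 0.0575 when Drp1 KO library 2 was left out and 0.0755 when library 3 of that group was. Its protein-coding transcripts held 51.3% of its estimated counts.

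*Col8a1*, a short-chain network-forming collagen of vessel walls, had 5, 8 and 8 counts in WT and 1, 1 and 4 counts in Drp1 KO. The groups did not overlap, but the difference rested on 21 counts against 6. The log2 fold change was -1.89 (SE 0.718), with an adjusted p of 0.218 by edgeR and 0.161 with the replicate block. Without 1 library the log2 fold change ran from -2.69 to -1.51. Its unadjusted p of 0.0250 rose to between 0.0537 and 0.0866 when library 2 or 3 of WT, or library 1 or 2 of Drp1 KO, was left out.

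The other collagens with a mean of at least 1 CPM did not pass either criterion. *Col23a1*, a transmembrane collagen, had 268 counts in WT and 291 in Drp1 KO (log2 fold change 0.01, SE 0.298). *Col4a4*, a basement membrane chain, had 123 and 148 counts (0.12, SE 0.338). *Col20a1*, of the FACIT class, had 132 and 110 counts without overlap in CPM (-0.41, SE 0.274, adjusted p 0.530 by edgeR). *Col26a1*, *Col25a1*, *Col10a1* and *Col27a1* had log2 fold changes of 0.09, 0.07, -0.25 and -0.05 with standard errors of 0.311 to 0.448.

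The fibrillar collagens of connective tissue were at trace levels. *Col1a1*, *Col1a2* and *Col3a1* were picked out after their values were seen, as the chains of fibroblast collagen. *Col1a1* had 64 counts in WT and 67 in Drp1 KO over 3 libraries each, *Col1a2* 58 and 39, and *Col3a1* 14 and 8. Of the 9 fibrillar chains 6 were lower and 3 higher in Drp1 KO, and 0 met the study's criteria (0 at an unadjusted p under 0.05 by edgeR), beside 12.7% and 16.4% of all genes and, as all but *Col27a1* were under 1 CPM, 4.95% by either rule of the genes tested with a mean under 1 CPM. The 24 collagens with a mean under 1 CPM split into 15 lower and 9 higher, and *Col8a1* was the only one of them to meet the study's criteria by edgeR (4.95% of the genes tested with a mean under 1 CPM did).

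Several of these low totals were not estimates of the coding mRNA. In 9 of the 44 genes under 50% of the estimated counts lay on protein-coding transcripts, among them *Col26a1* (1.37%), *Col25a1* (5.87%) and *Col27a1* (18.6%). In 23 genes the share was at least 90%.

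The version of *P4ha1* exon 9 used was alike in each library. Transcripts with the downstream version held 82.4%, 81.4% and 80.0% of the gene's estimated counts in WT and 82.4%, 82.5% and 79.8% in Drp1 KO, a difference of 0.327 points between means. The one of them that also lacks exon 6 held 9.61%, 14.1% and 13.0% in WT and 12.4%, 6.55% and 6.07% in Drp1 KO, which overlapped. In *P4ha2*, the transcript with the upstream exon 13 held 65.9%, 69.6% and 66.1% of the counts of the pair of transcripts in WT and 66.4%, 68.3% and 64.3% in Drp1 KO. The ranges of the groups overlapped, with Drp1 KO library 3 lowest.

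The exon of 63 bases in *Plod2* varied far more between libraries than between groups. Its share of the 2 transcripts was 23.8%, 48.4% and 9.52% in WT and 22.1%, 19.0% and 38.0% in Drp1 KO, from 84.6 to 234 estimated counts per library. For *Lox*, the transcript that starts upstream held 77.2%, 80.8% and 79.1% in WT and 79.5%, 86.3% and 87.6% in Drp1 KO, so that 2 Drp1 KO libraries lay above WT and library 1 within it. For *Col18a1* the short form held 88.3% to 89.5% in WT and 84.2%, 90.2% and 85.8% in Drp1 KO. These shares are divisions of reads by kallisto and not reads counted over the exons, and they were not tested.

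**Figure D4:**
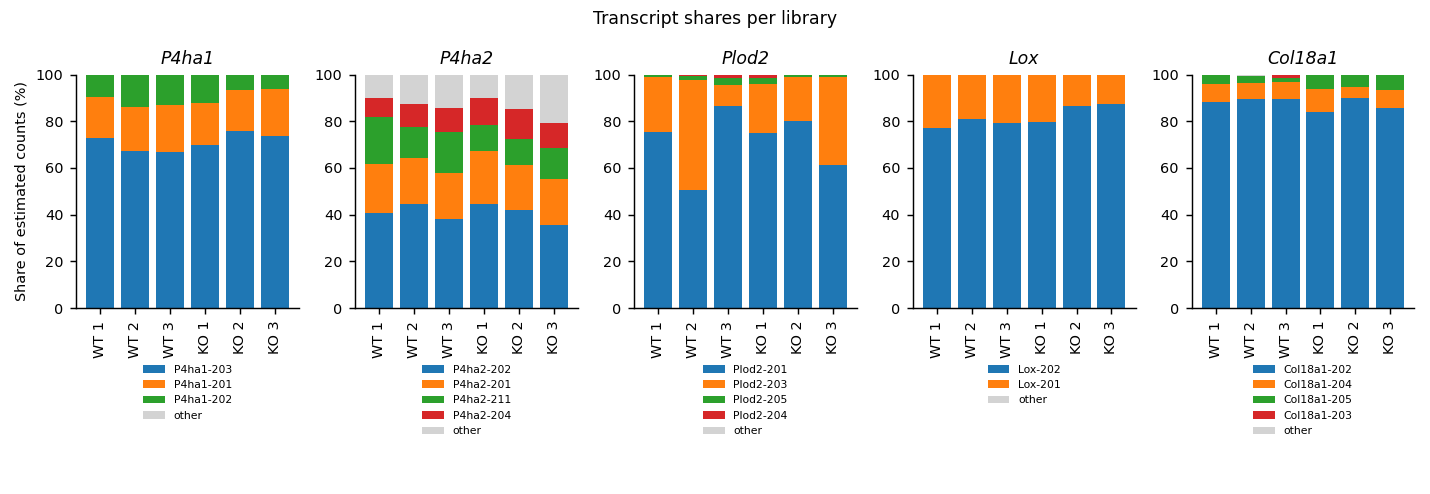
Percent of each gene's estimated counts on its 4 most abundant transcripts and on all others (stacked bars) in each WT and Drp1 KO library, for P4ha1, P4ha2, Plod2, Lox and Col18a1. The P4ha1 transcript with the upstream exon 9 (orange) runs from 17.5% to 20.2%, and within WT alone the Plod2 transcript with the added exon (orange) runs from 9.11% to 47.3%.

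Because hypoxia-inducible factors bind a short core motif, the 250 bases before the start of 1 transcript per gene in GRCm39 (the Ensembl canonical one, and the short form for *Col18a1*) were searched for ACGTG and GCGTG on both strands. Some of these windows lie wholly or in part inside the gene because other transcripts start further upstream, and the stretches of *P4ha2* and *Plod2* printed here do. So does the window of *Lox*, with 3 matches. It precedes the start of the canonical transcript and not that of the upstream one, which held most of the gene's estimated counts. The first motif can overlap its own reverse complement. A match was found in 41.3% of 21770 protein-coding genes, in 22 of the 44 genes (50%), in 8 of the 11 enzymes (72.7%) and in 14 of the 33 collagens (42.4%). These matches are descriptions of letters and not binding sites.

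The window of *P4ha1* at chr10:59158842-59159091, plus strand, is printed whole as the most abundant hydroxylase. For *P4ha2* and *Plod2*, the hydroxylases that met the study's criteria, a stretch of 30 bases is given, at chr11:53991663-53991692 (87 to 58 bases before that transcript's start) and chr9:92424157-92424186 (119 to 90 bases before it), both on the plus strand. Capitals mark the motif on either strand. Each stretch of 30 bases was picked for holding the most motif letters of its window, so the density of motifs in it is not a result.
P4ha1 upstream of the transcript used: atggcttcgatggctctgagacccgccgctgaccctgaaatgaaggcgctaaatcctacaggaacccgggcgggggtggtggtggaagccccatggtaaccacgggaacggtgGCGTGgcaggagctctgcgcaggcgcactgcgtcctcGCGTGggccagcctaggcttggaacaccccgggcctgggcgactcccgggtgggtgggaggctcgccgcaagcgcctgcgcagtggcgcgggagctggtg
P4ha2 upstream of the transcript used: gcatcgcatACGTGcagcGCGTGgcggctc
Plod2 upstream of the transcript used: agccccgGCGTGaggcggtgCACGTaggcg

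The enzymes work with other proteins of the endoplasmic reticulum and secretory pathway. Of 17 tested genes of collagen biosynthesis and secretion (18 listed), 15 had a fold change below 0 with a median log2 fold change of -0.18, beside 0.0046 over all genes. By edgeR 0 passed an adjusted p under 0.05 and 4 had an unadjusted p under 0.05, beside 3.36% and 16.4% of all genes. With the replicate block 3 fell and 1 rose, beside 5.22% and 6.73% of all genes. *P3h3*, of the prolyl 3-hydroxylase family, had 14.4, 13.04 and 13.8 CPM in WT and 10.4, 9.41 and 10.5 CPM in Drp1 KO (adjusted p 0.0863 by edgeR, 0.0182 with the block). *Pepd*, the prolidase that recycles proline, also fell in the blocked fit, and *Tmem38b*, an intracellular cation channel needed for collagen synthesis in bone, rose in it. *Serpinh1*, the collagen chaperone HSP47, was near the limit of detection, with 14 counts in WT and 10 in Drp1 KO.

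Of 7 tested genes of procollagen processing (10 listed), 0 passed by edgeR (2 at an unadjusted p under 0.05) and 2 fell with the replicate block, beside 16.4% of all genes at an unadjusted p under 0.05 and 5.22% that fell with the block. *Bmp1*, the procollagen C-proteinase, had 19, 23 and 17 counts in WT and 5, 6 and 7 in Drp1 KO, without overlap (log2 fold change -1.84, SE 0.439, adjusted p 0.0523 by edgeR, 0.0248 with the block). *Pcolce*, the enhancer of that proteinase, had 22, 46 and 49 counts in WT and 12, 25 and 22 in Drp1 KO, or 0.949 to 1.72 CPM against 0.545 to 0.764 CPM (adjusted p 0.127 by edgeR, 0.0285 with the block).

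Among 10 genes of collagen receptors and uptake, 7 had a fold change below 0 and 3 above it, with a median log2 fold change of -0.14. At an adjusted p under 0.05, 1 passed by edgeR and 1 with the replicate block, beside 3.36% and 12.0% of all genes. In both fits this was *Lair1*, which rose in Drp1 KO. It encodes an inhibitory collagen receptor of leukocytes and had 117, 116 and 132 CPM in WT and 158, 175 and 212 CPM in Drp1 KO. The groups did not overlap, and the log2 fold change was 0.58 (SE 0.120), or 1.498-fold, with an adjusted p of 0.0285 by edgeR and 0.000978 with the block. It did not pass without WT library 1, 2 or 3 or without Drp1 KO library 2 or 3, at adjusted p of 0.0589 to 0.180. *Itgb1*, the beta subunit of the collagen-binding integrins, had a log2 fold change of 0.003 (SE 0.0951), with 878 to 957 CPM in WT and 869 to 970 CPM in Drp1 KO.

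**Figure D5:**
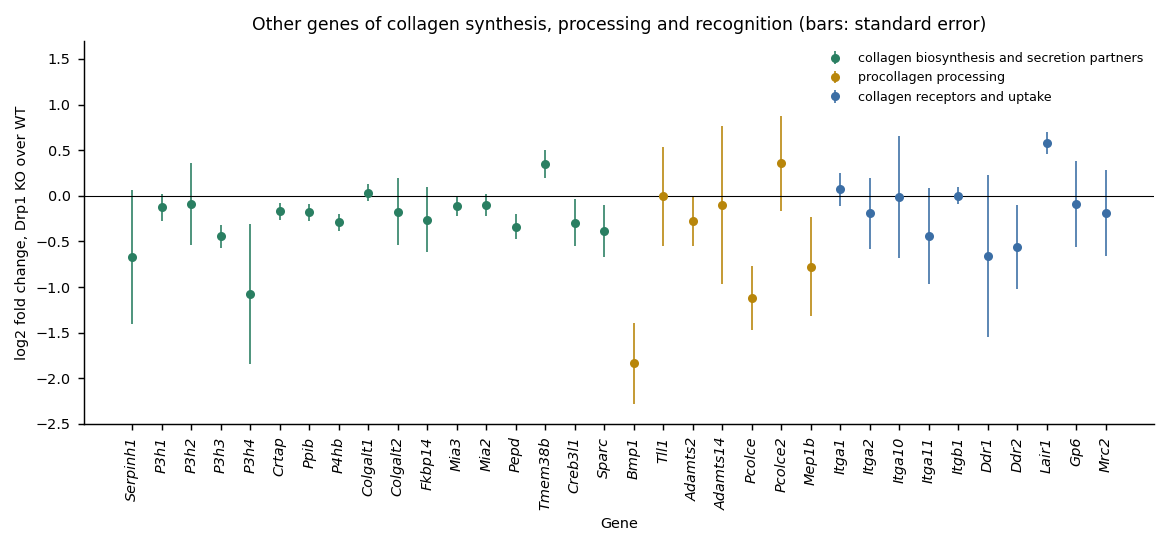
Log2 fold change of Drp1 KO over WT with its standard error for the tested genes of collagen biosynthesis and secretion (green), procollagen processing (ochre) and collagen receptors and uptake (blue). All but Colgalt1 and Tmem38b of the green points lie below 0, and Lair1 lies at 0.58.

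Markers of cells that could contribute collagen were measured beside these genes. Of 12 fibroblast and stromal markers outside the collagens, 10 were tested, and the list summed to 42.0 to 49.96 CPM in WT and 42.8 to 78.8 CPM in Drp1 KO. *Pdpn* and *Thy1*, which are not limited to fibroblasts, made up most of it, while *Lum* had 2 counts in each group and *Fbln1* 1 count in WT and 0 in Drp1 KO. The median log2 fold change of the list was -0.28, with 8 of the 10 lower, and 0 passed by edgeR (2 at an unadjusted p under 0.05, *Pdpn* and *Postn*, beside 16.4% of all genes). *Pdpn* rose with the block. *Postn*, the matrix protein periostin of fibroblasts, had 27, 26 and 11 counts in WT and 10, 10 and 8 in Drp1 KO, which met the study's criteria (log2 fold change -1.33, adjusted p 0.227 by edgeR, 0.0780 with the block). Osteoblast markers held *Runx2* alone above 10 counts, which rose with the block (adjusted p 0.0315) and not without it (0.190), with *Bglap* at 0 in each library. Megakaryocyte markers summed to 1.90 to 4.09 CPM in WT and 2.32 to 3.68 CPM in Drp1 KO.

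The 6 endothelial markers summed to 25.4 to 31.5 CPM in WT and 38.2 to 43.4 CPM in Drp1 KO, most of it *Kdr* and *Pecam1*. Of the 5 tested, 3 were higher and 2 lower in Drp1 KO. By edgeR 1 passed an adjusted p under 0.05 and 2 met the study's criteria, beside 3.36% and 12.7% of all genes. The 1 that passed was *Kdr*, which rose (log2 fold change 0.94, adjusted p 0.0144 by edgeR, but 0.106 without WT library 2 and 0.0892 without WT library 3). *Tie1* had 28 counts in WT and 20 in Drp1 KO (log2 fold change -0.62), *Emcn* 6 and 5, and *Tek* 6 and 0. *Cdh5*, the endothelial cadherin, had 2, 5 and 2 counts in WT and 12, 19 and 5 in Drp1 KO, which met the study's criteria (log2 fold change 1.85, adjusted p 0.222 by edgeR, 0.0983 with the block). *Pecam1* had 16.0 to 18.8 CPM in WT and 19.6 to 23.003 CPM in Drp1 KO without overlap (log2 fold change 0.25, adjusted p 0.353 by edgeR). The neutrophil markers summed to 6.86 to 21.1 CPM in WT and 20.5 to 48.4 CPM in Drp1 KO. All 6 tested had fold changes above 0, and 4 rose with the replicate block, beside 6.73% of all genes (0 by edgeR without it, and 4 at an unadjusted p under 0.05, beside 16.4% of all genes), with *Ly6g* at 0 in each library. Among 8 macrophage markers, whose sums were 13412 to 14811 CPM in WT and 11993 to 14417 CPM in Drp1 KO, *Csf1r* and *Mertk* fell and *Fcgr1* rose at an adjusted p under 0.05 by edgeR, where 3.36% of all genes passed. Without WT library 2 or 3 or Drp1 KO library 2 or 3, and for *Csf1r* also without WT library 1, the first 2 did not pass (adjusted p 0.0621 to 0.133). *Csf1r* also did not pass with length-scaled counts (log2 fold change -0.30, adjusted p 0.208), and *Fcgr1* passed in each of the 14 alternatives. In bulk RNA, fewer cells of a type and less RNA per cell cannot be told apart, and the part of these markers in the differences of *Col18a1*, *P4ha2*, *Plod2* and *Lox* was not tested.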

How the data were processed

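Poly(A) RNA of 3 WT and 3 Drp1 KO BMDM libraries was sequenced with paired-end reads. The authors quantified the reads with kallisto 0.46.1 (per the labels and methods) on an index of GRCm39 cDNA and deposited an estimated count and a TPM value per transcript. These deposited estimated counts are fractional and unscaled, and the deposited TPM values are scaled to length and library. The labels name a stranded kit and the methods an unstranded name; use of strand by kallisto is not given in the sources used here, so overlapping genes may share reads. The labels give 2.1% oxygen, which differs slightly from the methods.

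By identifier 116159 of 116873 transcripts (99.4%) matched the GENCODE annotation of GRCm39. Estimated counts were summed per gene and rounded, genes with at least 10 counts were kept, and Drp1 KO was compared with WT by the quasi-likelihood test of edgeR 4.0.16 (R 4.3.3, TMM, no covariate), adjusted over all genes. SE was taken as log2 fold change over the root of the F statistic. Depth was 23389488 to 32231206 estimated reads, and a floor of 3 counts covers counting error only. In simulated counts of 18120 genes for Drp1 KO against WT, 200 genes of at least 1 CPM on average were changed 2-fold. Of the changed genes 80.5% were recovered, and 13 unchanged genes were called. The simulation gives no rate for genes under 1 CPM or for changes under 2-fold.

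The replicate numbers were taken to pair the libraries because deviations from the group means correlated at 0.539, 0.218 and 0.352 in the 3 same-numbered pairs, over 12248 genes of at least 1 CPM on average. Pairs with different numbers correlated at -0.481 to 0.339, and the highest of these (WT 2 with Drp1 KO 3) was above the same-numbered pair 2. This pairing comes from the data and not from the design. Deviations were centered within each group of 3 libraries, so these correlations are not independent of each other. The p-values with the replicate block therefore rest on a pairing taken from the same expression values. No libraries were copies (chi-square per degree of freedom at least 10.4).

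Named genes were the enzymes, collagens of at least 1 CPM on average, genes past a criterion, and for other lists genes past an adjusted p under 0.05 or up to 3 of the highest TPM; others named are *Col1a1*, *Col1a2*, *Col3a1*, those called in the blocked fit only, those that met the study's criteria or those near 0 (*Serpinh1* and defining markers), chosen after their values were seen. The members and lists were chosen with earlier results of these data known. Alternatives were DESeq2 1.42.0, median-of-ratios factors, library size only, filterByExpr, a filter of 1 count, length-scaled counts, the replicate block, and libraries left out. No *Lox* sequence is shown, and protein sequences were not used here.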

Additional observations from a re-analysis of the deposited data

How the results depend on the processing

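Of the 44 genes, 0 passed an adjusted p under 0.05 by edgeR with TMM, and 2 passed with DESeq2, 2 with library size only, 1 with a filter of 1 count, 1 with length-scaled counts, 5 with the replicate block (the numbers taken to pair the libraries) and 3 without both libraries numbered 1. Without 1 library there were 0 to 1, the 1 being *Col18a1* without Drp1 KO library 1. The study's criteria called 5, and 3 to 6 without 1 library, with 3 without Drp1 KO library 2 or 3. Among all genes 621 passed the adjusted threshold, 1155 with DESeq2, 1065 with a filter of 1 count, 2212 with the replicate block, 1880 without both libraries numbered 1, and 181 to 904 without 1 library. Of those calls 68.3% were higher in Drp1 KO, but 57.4% with DESeq2, 56.3% with the block and 56.6% without both libraries numbered 1, and the share ran from 54.3% without Drp1 KO library 1 to 83.6% without Drp1 KO library 2. No scaling moved the median of all genes by more than 0.1.

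Among the genes named with values, the log2 fold change changed sign in these cases. For *P4ha1* it was -0.00628 with DESeq2, -0.00637 with median-of-ratios factors, -0.00617 with library size only, -0.00680 with filterByExpr, -0.00260 with a filter of 1 count and -0.0132 with length-scaled counts. For *Itgb1* it was -0.00737, -0.00736, -0.00970, -0.00816 and -0.00405 under the first 5 of these, and -0.00713 without both libraries numbered 1. It was -0.0285 for *Col26a1*, 0.101 for *Col27a1* and 0.247 for *Emcn* with length-scaled counts, and -0.00207 for *Col23a1* with library size only and -0.0321 with the replicate block. Without both libraries numbered 1 it was -0.119 for *Col23a1*, -0.131 for *Col25a1*, 0.152 for *Col10a1*, -0.181 for *Loxl4*, 0.118 for *Col1a1* and 0.136 for *Serpinh1*. The cause was not tested. Without 1 library it ran from -0.0401 to 0.0688 for *P4ha1*, -0.37 to 0.21 for *P4ha3*, -0.15 to 0.10 for *Plod3*, -0.70 to 0.16 for *Loxl1*, -0.27 to 0.0823 for *Loxl2*, -0.31 to 0.42 for *Loxl4*, -0.68 to 0.11 for *Col10a1*, -0.25 to 0.31 for *Col23a1*, -0.20 to 0.27 for *Col25a1*, -0.0738 to 0.28 for *Col26a1*, -0.30 to 0.25 for *Col27a1*, -0.15 to 0.28 for *Col4a4*, -0.31 to 0.19 for *Col1a1* and -0.0498 to 0.0451 for *Itgb1*. With 24 collagens under 1 CPM and standard errors of 0.349 or more, depth limits what could be detected in them.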
